A study of Mus musculus with 6 samples.

Results

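Tubulins are the protein subunits of microtubules. The 10 isotype genes described here were chosen by name, as α-tubulins (Tuba1a, Tuba1b, Tuba4a) and β-tubulins (Tubb2a, Tubb2b, Tubb3, Tubb4a, Tubb4b, Tubb5, Tubb6), and all 10 were found by symbol among the 24421 rows of the expression table. They were measured by RNA-seq in tdTomato-positive islet β cells isolated by flow cytometry after islet dispersal, in 3 control and 3 βDKO libraries, at 7 weeks of age. Controls carried MIP-CreERT, a tamoxifen-inducible Cre under the mouse insulin promoter, with 1 floxed Brg1 allele (Brg1f/+) and 1 null Brm allele (Brm+/-), so they were not wild type. The βDKO genotype was Brg1f/f; Brm-/- with the same MIP-CreERT, so that Brg1 is deleted in β cells and Brm in the whole animal. These genes encode the alternative ATPases of the Swi/Snf chromatin remodeller. Both groups received tamoxifen, carried a Cre-activated tdTomato allele at R26 and were of mixed C57BL/6J and 129SV background. The labels do not say whether a library came from 1 mouse or a pool, so the p-values measure the spread between libraries, which may be technical.

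The table is in TPM, transcripts per unit total after division by gene length, so levels of different genes can be compared and every library adds up to the same total. Ins1 and Ins2 lost most of their TPM in βDKO cells, and over the 10404 tested genes (at least 5 TPM in at least 3 libraries) the median log2 change was 0.83. After division by median-of-ratios size factors, which set the typical gene to no change, it was 0.03. No measurement in the table decides between these scales, so "rose" and "fell" below mean an adjusted p under 0.05 in limma, a linear model fitted to all genes, on both, and otherwise the scale is named. A call on TPM alone is against no change in the share of all transcripts and not against the typical gene. In TPM, Smarca4 (Brg1) was at 8.997, 13.5 and 12.4 in controls and at 10.6, 10.5 and 11.4 in βDKO, and Smarca2 (Brm) at 14.1, 27.5 and 26.6 against 25.04, 23.2 and 22.4. Neither targeted gene was lower on TPM, where the groups overlapped. Both were lower after rescaling (log2 −0.86 and −0.71, limma adjusted p = 5.62e-04 and 0.0101), and whole-gene values also count exons outside a deletion. Reads recovered from the TPM steps numbered 25388872 to 31282056 per library. All 10 β-cell markers examined were detected in every library. Their summed level, carried by Ins1, Ins2 and Iapp, was at least 468571 TPM in controls and at most 96568 TPM in βDKO. After rescaling limma called all 10 lower, beside 21.1% of tested genes. On TPM it called 8 lower and 2 higher, beside 4.61% and 81.4% of tested genes. Pdx1 was at 247 to 313 TPM in controls and 329 to 377 TPM in βDKO. Nkx6-1 was at 521 to 794 and 811 to 869 TPM. Because these are bulk samples, fewer cells of a type and less RNA per cell cannot be told apart.

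One α- and one β-tubulin form a dimer, and dimers polymerise into the microtubule wall. Vertebrates hold several genes for each subunit. Their products are alike in the body of the protein and differ mostly in an acidic C-terminal tail, which faces outward and is a site of glutamylation and of contacts with motors and microtubule-associated proteins. In β cells, microtubules form a dense network that carries insulin granules and limits their access to the plasma membrane.

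The 3′ end of the coding sequence, which encodes the tail, is shown for 6 β members because the results turn on which isotype supplies it. Each line gives the last 81 coding bases, stop codon included, from the GENCODE M21 transcripts (mm10), 5′ to 3′ on the coding strand, and capitals mark the bases that follow the last codon block shared by every member of the family. The 6 β sequences lie at chr2:25222308-25222388, chr17:35834982-35835062, chr17:57080690-57080770, chr13:34074468-34074548, chr13:34127471-34127551 and chr8:123421602-123421682, on the minus strand except for Tubb3.
Tubb4b: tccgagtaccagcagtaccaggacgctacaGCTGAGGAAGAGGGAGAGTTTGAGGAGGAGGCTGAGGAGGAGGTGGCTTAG
Tubb5: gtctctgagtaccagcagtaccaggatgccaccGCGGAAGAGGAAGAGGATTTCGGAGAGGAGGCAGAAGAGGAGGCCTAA
Tubb4a: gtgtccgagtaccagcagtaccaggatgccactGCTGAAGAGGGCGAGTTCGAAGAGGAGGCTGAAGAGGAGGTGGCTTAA
Tubb2a: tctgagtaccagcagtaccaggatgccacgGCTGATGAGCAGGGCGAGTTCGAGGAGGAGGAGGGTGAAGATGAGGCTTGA
Tubb2b: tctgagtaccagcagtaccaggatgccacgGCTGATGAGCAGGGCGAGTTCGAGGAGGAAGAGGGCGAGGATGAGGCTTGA
Tubb3: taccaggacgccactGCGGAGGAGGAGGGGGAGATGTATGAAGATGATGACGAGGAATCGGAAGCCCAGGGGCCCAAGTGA
The capital stretch ran from 48 bases in Tubb4a and Tubb5 to 66 bases in Tubb3. G and A made up 74.5% to 81.3% of it in these 6 genes.

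Tubb2a and Tubb2b differed at 3 of these 81 bases. Over the whole coding sequence Tuba1a and Tuba1b were 98.3% identical, Tubb2a and Tubb2b 96.5%, and every other pair within a family 80.2% to 85.9%. Of all 75-base windows of the transcript, 68.2% in Tuba1a, 71.9% in Tuba1b, 43.2% in Tubb2a, 32.2% in Tubb2b and 37.8% in Tubb4b also occurred in a transcript of another gene, for Tubb4b mostly the pseudogene Tubb4b-ps1. Tubb3, Tubb4a, Tubb5, Tubb6 and Tuba4a had no such window. The gene sharing the most windows with Tuba1a and Tuba1b was Tuba1c (39.9% and 53.4%), which is not among the 3 α members. How the authors' counting treated reads with several matches is not given in the sources used here, so the split between Tuba1a and Tuba1b, and between Tubb2a and Tubb2b, is uncertain. The levels of these genes and of Tubb4b are uncertain for the same reason, as are the shares, sums and α to β ratio that hold them.

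In βDKO cells the β-tubulin pool was divided differently among its genes. Shares are given first because a share within the family does not change with the scaling of a library. Tubb5 and Tubb4a made up a larger part of β-tubulin transcripts in βDKO cells, by 17.6 and 5.71 percentage points on average. Tubb4b, Tubb2a and Tubb3 made up a smaller one, by −11.8, −7.41 and −3.70 points, and Tubb6 went from 0.787% to 0.0188%. With 3 libraries against 3, the smallest two-sided p an exact permutation test can give is 0.1, and every share whose groups did not overlap reached that value.

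Tubb5 (chromosome 17, 35833921 to 35838306, mm10), the β-tubulin found in most cell types, made up 17.1%, 10.1% and 12.5% of the 7 β members in the control libraries, in order of their numbers, and 31.9%, 32.9% and 27.7% in the βDKO libraries. All 3 βDKO libraries stood above all 3 controls, with means of 13.2% ± 3.59 and 30.8% ± 2.77 (SD, n = 3, exact permutation p = 0.1). Tubb4a (chromosome 17, 57080066 to 57087782), best known from neurons and oligodendrocytes, held 1.71%, 1.24% and 1.45% in controls and 8.56%, 8.61% and 4.36% in βDKO. The groups did not overlap, and βDKO 3 was about midway between the controls and the other βDKO libraries.

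Tubb4b (chromosome 2, 25222160 to 25224702), a broadly expressed isotype also used in cilia, was the leading β-tubulin in every library. Its share was 54.2%, 54.7% and 50.9% in controls and 38.3%, 39.2% and 47.0% in βDKO. The groups again did not overlap, with βDKO 3 nearest to the controls. Tubb3 (chromosome 8, 123411424 to 123422015), the isotype widely used as a neuronal marker, held 9.33%, 5.68% and 9.93% in controls and 5.12%, 4.81% and 3.91% in βDKO. Control 2 lay close to the βDKO range.

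Tubb2a (chromosome 13, 34074274 to 34078007), an isotype abundant in brain, held 16.0%, 25.9% and 24.7% in controls against 15.2%, 13.6% and 15.5% in βDKO. Control 1 stood apart from its group and only just above βDKO 3. Added to its near copy Tubb2b, the shares were 16.2%, 27.6% and 24.9% against 16.1%, 14.4% and 17.02%, and on that sum control 1 lay inside the βDKO range. Tubb2b alone (chromosome 13, 34126748 to 34130466) held 0.232%, 1.76% and 0.191% in controls and 0.985%, 0.810% and 1.48% in βDKO, with overlapping groups (exact permutation p = 0.6, n = 3 each).

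**Figure D1:**
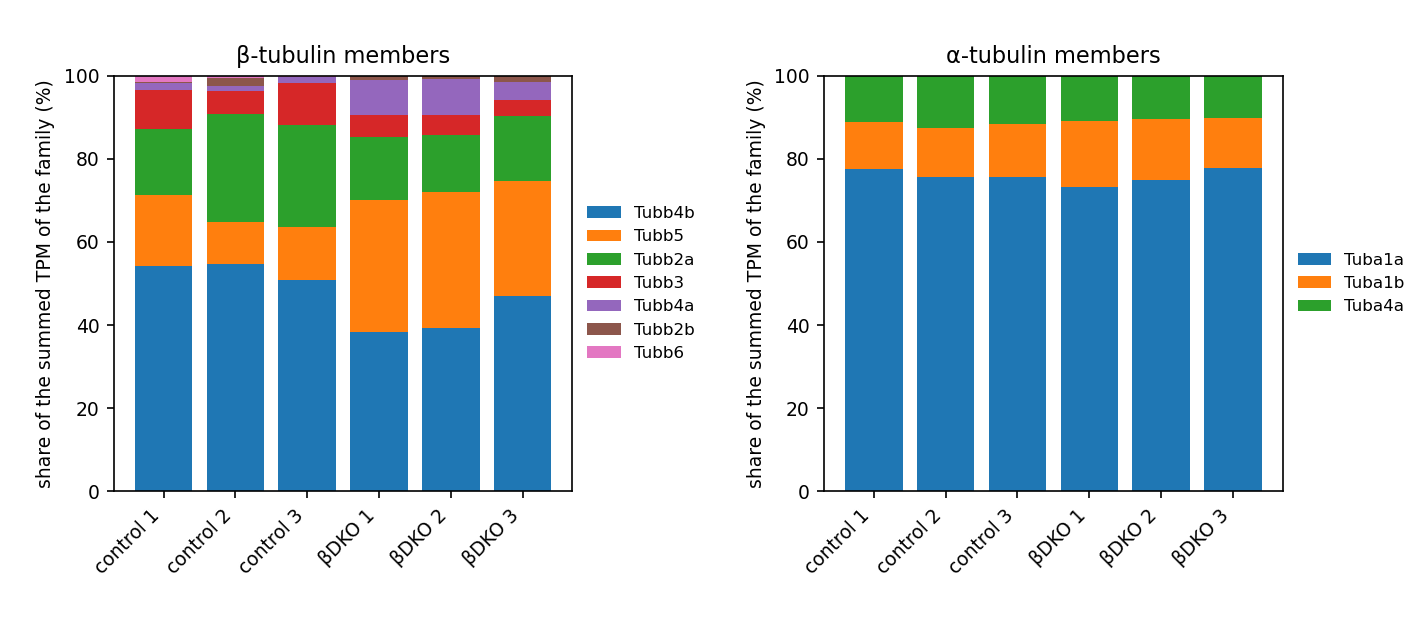
Share of each member in the summed TPM of its family (%, stacked bars from 0 to 100) in each of the 3 control and 3 βDKO libraries, β-tubulins on the left and α-tubulins on the right. The Tubb5 share is 10.1% to 17.1% in controls and 27.7% to 32.9% in βDKO, whereas Tuba1a holds 73.3% to 77.8% of the α members in all libraries.

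The α shares differed less, by −1.25 to 2.14 percentage points. Tuba1a, an α-tubulin prominent in neurons, made up 77.4%, 75.7% and 75.6% of the 3 α members in controls and 73.3%, 74.95% and 77.8% in βDKO (exact permutation p = 0.5, n = 3 each). Tuba1b, a widely expressed α-tubulin, held 11.97% ± 0.800 and 14.1% ± 1.89 (p = 0.2, exact permutation, n = 3), with overlapping groups. Tuba4a, the isotype whose coding sequence lacks the terminal tyrosine codon of the others, was at 11.3%, 12.6% and 11.5% in controls and 10.99%, 10.5% and 10.2% in βDKO, a small difference without overlap. Together, 7 of the 10 shares did not overlap between groups, 2 higher and 5 lower. These were every β share but that of Tubb2b, and among the α shares only that of Tuba4a. Most tested genes likewise did not overlap relative to the β sum, and a minority relative to the α sum. Shares within a family also have to add up to the whole, which does not bind other genes, so the counts are not like for like. Set against the same denominators, 82.8% of all 10404 tested genes did not overlap relative to summed β-tubulin (78.0% higher, 4.81% lower) and 34.7% relative to summed α-tubulin (18.9% higher, 15.8% lower).

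Library by library, the order of the β isotypes was the same in all 3 βDKO samples. It ran Tubb4b, Tubb5, Tubb2a, Tubb4a, Tubb3, Tubb2b, Tubb6. In controls Tubb4b was always first and Tubb3 always next after Tubb5 and Tubb2a, while Tubb5 and Tubb2a changed places between control 1 and the others, and the last 3 places were held by Tubb4a, Tubb6 and Tubb2b in varying order. To turn the β composition of 1 library into that of another, 2.001% to 12.02% of the pool would have to be reassigned between libraries of the same group, and 14.4% to 30.2% between a control and a βDKO library. The smallest value within a group belonged to βDKO 1 and βDKO 2, which were also the closest pair over all tested genes (SD of log2 differences 0.161, where the remaining within-group pairs had 0.294 to 0.453). Set against counting noise alone, with reads taken as independent, the chi-square of their reads had a median of 1.43 and a mean of 4.88 over genes, where the other pairs had medians of 4.46 to 9.95 and means of 24.1 to 100.9, and both libraries were kept as separate samples.

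Of the 10 members, 8 passed the expression filter. In TPM, 7 of these 8 passed limma, 5 of them higher and 2 lower, in a background where 86.0% of tested genes passed, 81.4% higher and 4.61% lower. The rescaled fit called 4 of them, 1 higher and 3 lower, against 44.5% of tested genes (23.4% higher, 21.1% lower). Counted by groups that did not overlap, 6 of 8 members differed on TPM (5 higher, 1 lower), beside 88.0% of tested genes (83.2% higher, 4.82% lower), and 4 of 8 after rescaling (1 higher, 3 lower), beside 58.0% (31.0% higher, 27.0% lower). On both scales 1 member rose and 2 fell, beside 23.4% and 4.61% of tested genes.

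Tubb4a was the member that rose. It was at 8.24, 6.72 and 6.41 TPM in controls and 40.6, 40.3 and 23.9 TPM in βDKO, from 181 to 307 reads per control library and 547 to 967 per βDKO library. All βDKO values exceeded all controls, a 4.90-fold ratio of means. The log2 change was 2.11 on TPM (SE 0.22, limma adjusted p = 7.99e-05) and 1.32 after rescaling (SE 0.24, adjusted p = 0.00307), and no exon of another gene overlapped it.

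Tubb3 fell. Its TPM was 45.05, 30.7 and 44.0 in controls and 24.2, 22.5 and 21.5 in βDKO. The βDKO values were close together and below every control. The log2 change was −0.77 on TPM (SE 0.17, limma adjusted p = 0.00282) and −1.59 after rescaling (SE 0.20, adjusted p = 4.92e-04). Of 8 markers of Schwann cells and neurons, summed TPM went the other way, from 34.8 to 44.0 in controls and from 92.4 to 96.9 in βDKO, carried by Syn1 and Elavl4, while Sox10 and S100b were at 0 in all controls. The part of such cells in the Tubb3 values was not tested.

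Tubb2a also passed on both scales, less firmly on TPM. It was at 77.0, 139.8 and 109.5 TPM in controls and 71.8, 63.8 and 85.2 TPM in βDKO, and the groups overlapped because control 1 lay below βDKO 3. On TPM the log2 change was −0.53 (SE 0.21, limma adjusted p = 0.0433). That call was lost without any of control 2, control 3, βDKO 1 or βDKO 2 (adjusted p = 0.0837 to 0.144, limma, log2 −0.33 to −0.51). After rescaling the change was −1.37 (SE 0.16, limma adjusted p = 3.49e-04), the groups no longer overlapped, and leaving out any 1 library kept the call.

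Tubb4b was lower on the rescaled scale. In TPM it was at 261.5, 295.6 and 225.8 in controls and 181.4, 183.8 and 257.8 in βDKO, where βDKO 3 lay within the control range. The log2 change was −0.34 on TPM (SE 0.16, limma adjusted p = 0.0725) and −1.19 after rescaling (SE 0.19, adjusted p = 0.00158). Without βDKO 3 it passed on TPM too (log2 −0.50, adjusted p = 0.00808), as it did without control 3 (adjusted p = 0.0415). Exons of Tubb4b overlap Fam166a on the opposite strand, which was at 4.30, 6.39 and 6.61 TPM in controls and 1.99, 1.62 and 0.691 TPM in βDKO, and without known use of strand the shared stretch cannot be assigned.

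Tubb5 was higher on TPM. Its values were 82.7, 54.3 and 55.5 TPM in controls and 151.2, 154.0 and 151.6 TPM in βDKO, a 2.37-fold ratio of means. The 3 βDKO libraries were nearly equal and above every control (log2 1.26, SE 0.16, limma adjusted p = 1.90e-04). After rescaling, control 1 stood above the βDKO values, and the log2 change was 0.42 (SE 0.23, limma adjusted p = 0.183). Without control 1 the rescaled change was 0.72 (limma adjusted p = 3.58e-04). Control 1 was also the library with the most acinar transcripts, 429.9 TPM summed over 7 markers against 44.5 and 10.4 in controls 2 and 3 and 9.96 to 103.6 in βDKO. The part of these in the Tubb5 value was not tested.

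The α members stood near the median of all tested genes. On TPM all 3 were higher. Tuba1a (chromosome 15, 98949837 to 98953703), the most abundant tubulin transcript in every library, was at 545.9, 454.0 and 400.5 TPM in controls and 768.8, 795.8 and 906.1 TPM in βDKO. Tuba1b (chromosome 15, 98931425 to 98934565) went from 72.7 ± 6.07 to 153.2 ± 12.5 TPM and Tuba4a (chromosome 1, 75214228 to 75219865) from 71.9 ± 9.65 to 114.9 ± 3.596 TPM (SD, n = 3). None of these groups overlapped on TPM, and all of them did after rescaling. The log2 changes were 0.83, 1.06 and 0.68 on TPM (limma adjusted p = 4.33e-04, 5.73e-05 and 8.26e-04) and −0.02, 0.22 and −0.17 after rescaling (adjusted p = 0.931, 0.270 and 0.443). Tuba1b passed after rescaling when control 1 was left out (log2 0.40, adjusted p = 0.00913), where Tuba1a and Tuba4a stood at 0.21 and 0.02. Exons of Tuba4a overlap Stk16 on the opposite strand, which was at 14.2 to 16.4 TPM in controls and 22.8 to 25.2 TPM in βDKO. Exons of Tuba1a and Tuba1b overlap the gene model Gm49450 on the same strand, and those of Tuba1b also overlap Gm41396 on the opposite strand.

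**Figure D2:**
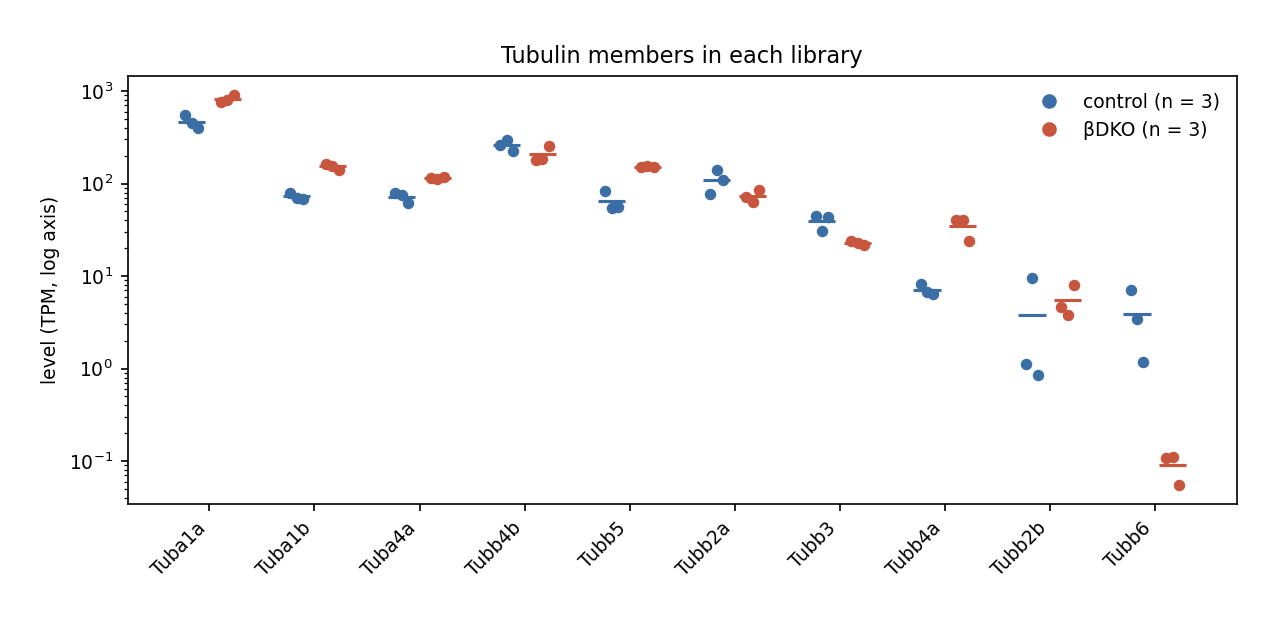
Level of each member (TPM, log axis) in the 3 control and 3 βDKO libraries, with 1 point per library and a bar at the group mean. Tubb4a lies at 6.41 to 8.24 TPM in controls and 23.9 to 40.6 TPM in βDKO, and Tubb6 at 1.16 to 7.03 and 0.0558 to 0.110 TPM.

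Tubb6 and Tubb2b did not pass the filter. Tubb6 (chromosome 18, 67390717 to 67402749), a minor β-tubulin of mostly non-neuronal tissues, was at 7.03, 3.46 and 1.16 TPM in controls and 0.107, 0.110 and 0.0558 TPM in βDKO. These rest on 205, 73 and 30 reads in controls and on 2, 2 and 1 reads in βDKO, so that the gene was near the limit of detection in all 3 βDKO libraries. Pooled over libraries, and on the TPM scale, it was 44.4-fold lower in βDKO, with an exact 95% interval of 18.8 to 137.7 that covers counting error only. Control 1 held 205 of the 308 control reads, and without it the ratio was 24.1 (interval 9.99 to 75.7). In a fit without the filter its log2(TPM + 1) change was −1.97 (SE 0.45, limma adjusted p = 0.00881), and −2.33 (SE 0.54, adjusted p = 0.0204) after rescaling. In that fit 6.17% of 17807 rows were lower on TPM and 16.4% after rescaling.

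In controls, Tubb6 stood in the same order over libraries as the summed acinar markers given above. The same order held for the sums of 5 α-cell markers, at 5046, 3978 and 2344 TPM in controls and 551 to 843 TPM in βDKO. It held for 3 markers of PP and ε cells, at 4019, 2145 and 1592 TPM in controls and 608 to 891 TPM in βDKO. Summed over 3 δ-cell markers the order held too, at 5002, 3674 and 2520 TPM in controls and 1968 to 2541 TPM in βDKO. That sum was carried by Sst. Rbp4, another of the 3, went the other way, at 53.5, 60.1 and 70.9 TPM in controls and 216 to 233 TPM in βDKO. The order of Tubb6 in controls further held for 5 fibroblast and stellate-cell markers, at 1.41, 0.505 and 0.217 TPM and 0.0661 to 0.858 TPM. It also held for 5 endothelial markers, at 11.2, 9.24 and 5.85 TPM, but those were higher in βDKO, at 23.95 to 28.8 TPM, and were carried by Esam, with Cdh5, Kdr and Plvap at 0 in controls 2 and 3. Markers of dividing cells were lower in βDKO and stood in another order in controls. Their 6 genes summed to 26.6, 15.2 and 19.1 TPM in controls and 2.48 to 3.50 TPM in βDKO. The sum of 7 immune-cell markers, mostly C1qa, was at 115.5, 176.4 and 199.5 TPM in controls, the reverse order, and 7.94 to 13.6 TPM in βDKO. Summed over 5 ductal markers, carried by Krt7, the level was 366.5, 257.5 and 276.0 TPM in controls, another order, and 206.7 to 214.3 TPM in βDKO. The part of any of these cells in the Tubb6 values was not tested. Tubb2b was at 1.12, 9.51 and 0.845 TPM in controls and 4.67, 3.79 and 8.10 TPM in βDKO. Its high control was control 2, the library in which Tubb2a was highest.

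The balance between the families shifted. Summed α-tubulin was 1.46, 1.11 and 1.19 times summed β-tubulin in controls and 2.21, 2.27 and 2.12 times in βDKO. This ratio, which does not depend on the scaling of a library, had means of 1.26 ± 0.183 and 2.20 ± 0.0718 (SD, n = 3) without overlap, and an exact permutation test gave p = 0.1, the smallest possible. Most genes did the same, as 78.0% of all tested genes were higher without overlap relative to summed β-tubulin. Summed α-tubulin went from 611.5 ± 88.2 to 1092 ± 63.2 TPM without overlap (exact permutation p = 0.1, n = 3), while summed β-tubulin was at 488.7 ± 48.7 and 496.8 ± 44.4 TPM (exact permutation p = 0.9, n = 3). After rescaling, it was the β sum whose groups did not overlap, at 659.9 ± 102.8 in controls and 370.03 ± 37.2 in βDKO (exact permutation p = 0.1, n = 3). The α sum then stood at 836.5 ± 235.5 and 812.99 ± 57.8 (p = 1, exact permutation, n = 3). Of all tested genes, 83.2% were higher without overlap on TPM and 27.0% lower without overlap after rescaling.

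**Figure D3:**
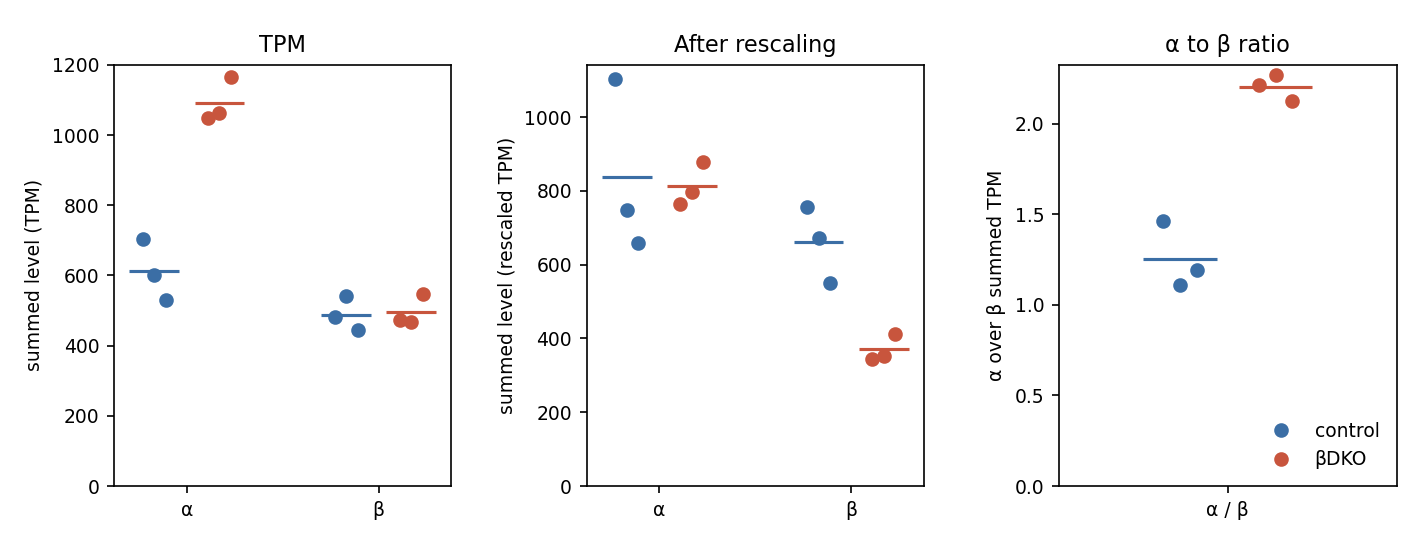
Summed α- and β-tubulin in TPM, the same after rescaling, and their ratio, with 1 point per library and a bar at the mean of 3 control or 3 βDKO libraries. The ratio is 1.11 to 1.46 in controls and 2.12 to 2.27 in βDKO.

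Isotypes were also fitted relative to summed tubulin, by scaling every library to the same total over the 10 members and refitting all genes. On that scale Tubb4a (log2 1.62, SE 0.26), Tubb5 (0.73, SE 0.19) and Tuba1b (0.54, SE 0.18) were higher, with limma adjusted p of 3.65e-05, 0.00390 and 0.0243, beside 27.3% of tested genes. Tubb4b (−0.87, SE 0.16), Tubb2a (−1.05, SE 0.22) and Tubb3 (−1.28, SE 0.23) were lower, with limma adjusted p of 2.48e-04, 7.75e-04 and 1.62e-04, beside 7.08% of tested genes, so that 6 of 8 members passed where 34.4% of tested genes did. Tuba1a and Tuba4a, at 0.29 and 0.15, did not pass (limma adjusted p = 0.131 and 0.525). By groups that did not overlap, 8 of 8 members differed, 5 higher and 3 lower, beside 50.0% of tested genes (40.2% higher, 9.83% lower). The members make up the total used for scaling, which ties their changes to one another, and other genes carry no such tie. On this scale the counts of members and the shares of tested genes are therefore not like for like. The Tuba1b call was lost without control 2, βDKO 1 or βDKO 2 (adjusted p = 0.118, 0.200 and 0.140, limma).

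**Figure D4:**
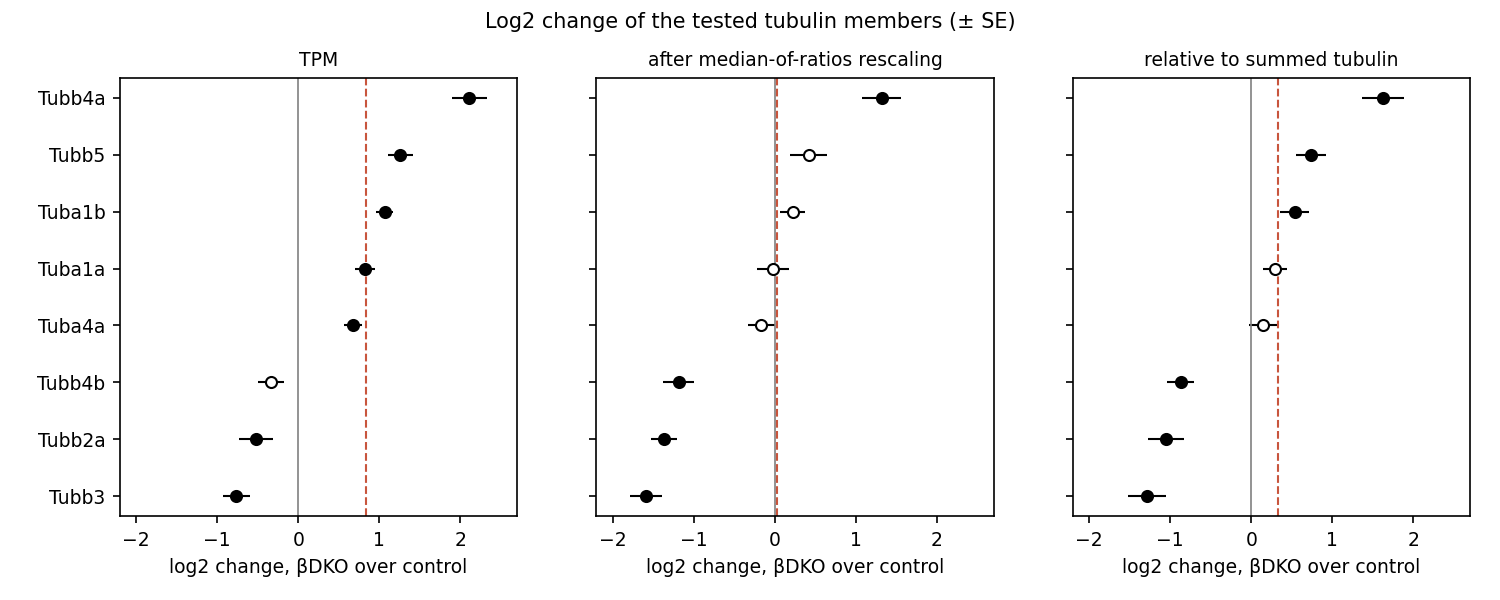
Log2 change (βDKO over control, ± SE from limma) of the 8 tested members on TPM, after rescaling and relative to summed tubulin. Filled points passed an adjusted p of 0.05, and the dashed line is the median of all tested genes. Tubb4a is highest and Tubb3 lowest on each scale.

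The promoters of the β isotypes with the largest gains and the largest loss in share are shown for comparison. Each is a window of 300 bases (RefSeq, GRCm38.p6), on the minus strand at chr17:35838252-35838551, chr17:57087551-57087850 and chr2:25224653-25224952. For Tubb5 and Tubb4b the window lies mostly before the start of the gene span given above. That of Tubb4a lies mostly inside its gene span, which reaches 57087782, so its matches are not from a like position. Capitals mark CCAAT and GGGCGG on either strand, the letters of the CCAAT box and of the GC box.
Tubb5: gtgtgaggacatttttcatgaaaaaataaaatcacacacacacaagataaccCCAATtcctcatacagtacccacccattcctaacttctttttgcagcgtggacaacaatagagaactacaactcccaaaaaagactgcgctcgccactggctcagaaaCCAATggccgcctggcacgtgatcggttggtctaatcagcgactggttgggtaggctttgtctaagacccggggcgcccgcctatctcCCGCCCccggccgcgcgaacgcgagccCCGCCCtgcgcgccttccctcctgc
Tubb4a: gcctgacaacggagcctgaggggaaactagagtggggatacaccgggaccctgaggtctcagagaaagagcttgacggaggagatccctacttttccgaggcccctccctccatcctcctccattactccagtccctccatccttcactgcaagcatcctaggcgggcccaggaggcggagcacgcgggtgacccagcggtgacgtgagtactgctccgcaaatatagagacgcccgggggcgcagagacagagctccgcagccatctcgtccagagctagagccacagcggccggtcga
Tubb4b: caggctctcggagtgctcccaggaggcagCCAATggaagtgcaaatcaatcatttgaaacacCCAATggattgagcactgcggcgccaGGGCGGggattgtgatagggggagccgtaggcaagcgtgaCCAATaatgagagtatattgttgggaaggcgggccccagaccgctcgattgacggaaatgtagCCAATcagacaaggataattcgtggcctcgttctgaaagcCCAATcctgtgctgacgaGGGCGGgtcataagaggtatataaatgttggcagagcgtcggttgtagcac
Tubb4b held 5 CCAAT matches, Tubb5 held 2, and Tubb4a none. At least 1 was found in 37.4% of all 32851 promoter windows and at least 5 in 0.271%. GGGCGG was found 2 times in each of Tubb5 and Tubb4b and not in Tubb4a, and in 35.7% of all windows. Over the 8 members with a window in the table, CCAAT was found in 4, GGGCGG in 7, TATAAA in 2, CANNTG in 6, TGACG in 4 and GTTGCC in none, against 13.6%, 72.3%, 20.8% and 12.5% of all windows for the last 4. These are matches of letters and not sites of binding.

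Among the other tubulin genes, 3 of 11 passed the filter. Tubg2, a γ-tubulin of the complex that nucleates microtubules, rose from 24.4 ± 2.83 to 66.3 ± 5.86 TPM (SD, n = 3, log2 1.41 on TPM and 0.58 after rescaling, limma adjusted p = 4.33e-05 and 0.00207). Tubg1, the main γ-tubulin, was higher on TPM only, at 45.6 ± 2.78 and 89.95 ± 2.19 TPM, with a rescaled log2 change of 0.13 (limma adjusted p = 0.426). Tuba1c was at 23.7 ± 6.19 and 29.3 ± 1.43 TPM and passed on neither scale (adjusted p = 0.142 and 0.128, limma). Without control 1, Tuba1c passed on TPM (log2 0.49, limma adjusted p = 0.0238) and Tubg1 after rescaling (log2 0.25, limma adjusted p = 0.0455). Tuba8, Tubd1 and Tube1 ranged from 0.709 to 4.504 TPM, Tubal3, Tubb1 and Tubb2a-ps2 from 0 to 0.298 TPM, and Tuba3a and Tuba3b were listed at 0 in every library.

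Partners of the γ-tubulins gave similar values. All 9 genes listed for the γ-tubulin ring complex and its recruiters were tested and 9 were higher on TPM, where 81.4% of all tested genes were. The rescaled fit called 4 of them higher and none lower, beside 23.4% and 21.1% of all tested genes (median log2 1.07 and 0.23). Nedd1, which brings the complex to centrosomes, rose from 5.43 ± 1.15 to 19.5 ± 1.63 TPM (SD, n = 3, rescaled log2 0.92, limma adjusted p = 8.18e-04). The ring subunits Tubgcp2 and Tubgcp4 and the activator Cdk5rap2 rose, by 2.40- to 2.55-fold on TPM.

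Most genes that fold tubulin passed on TPM but not after rescaling. Of 22 tested genes for the chaperonin CCT, prefoldin, tubulin cofactors and the autoregulation factor Ttc5, the TPM fit called 21 higher and 1 lower, where 81.4% and 4.61% of all tested genes were called. The rescaled fit called 3 higher and 1 lower, beside 23.4% and 21.1% of all tested genes. The median log2 changes were 0.91 and 0.07, beside 0.83 and 0.03 for all tested genes. Tbcd, the one that fell, is tubulin cofactor D, which takes part in the folding of β-tubulin and the assembly of the dimer. Its level went from 48.7 ± 8.43 to 31.9 ± 1.70 TPM (SD, n = 3), with log2 changes of −0.58 on TPM and −1.41 after rescaling (limma adjusted p = 0.00574 and 1.83e-05). The CCT subunits Tcp1 and Cct8 and the prefoldin subunit Pfdn5 rose 2.39- to 2.44-fold on TPM (rescaled log2 0.40 to 0.43). Without control 1, the count higher after rescaling was 6.

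Of 25 listed enzymes that modify tubulin 16 were tested, and 14 of these were higher on TPM, a share near the 81.4% of all tested genes. The rescaled fit called 7 higher and 2 lower, beside 23.4% and 21.1% of all tested genes (median log2 1.16 and 0.38). Ttll7, a ligase that adds glutamate chains to the β-tubulin tail, whose coding ends are shown above, rose from 19.9 ± 5.35 to 107.7 ± 13.5 TPM (SD, n = 3, log2 2.41 on TPM and 1.58 after rescaling, limma adjusted p = 3.11e-05 and 7.54e-05). Ttll13, of the same enzyme family, rose 4.83-fold, Tpgs2, a subunit of a tubulin polyglutamylase, 3.59-fold and the deacetylase Sirt2, for which α-tubulin is a known substrate, 2.69-fold on TPM.

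Proteins that bind microtubules included Clasp2, whose log2 change was the largest among the genes named from these lists. Of 33 listed 26 were tested, with 24 higher on TPM, against the background of 81.4%. The rescaled fit called 12 higher and 3 lower, against 23.4% and 21.1% (median log2 1.14 and 0.34). Clasp2, which stabilises growing plus ends, rose from 2.85 ± 0.766 to 22.9 ± 1.65 TPM (SD, n = 3, log2 2.65 on TPM and 1.93 after rescaling, limma adjusted p = 1.24e-05 and 2.27e-05). Mapt, which encodes tau, rose 5.58-fold, Map2, a dendritic microtubule-associated protein, 3.16-fold and Clip2, a plus-end linker, 3.10-fold on TPM. Of 28 listed motor genes 25 were tested, with 23 higher on TPM. The rescaled fit called 7 of the motors higher and 4 lower, shares near the same background (median log2 0.87 and 0.07). Kif5a, the kinesin-1 heavy chain best known from neurons, rose from 1.75 ± 0.546 to 9.54 ± 1.27 TPM (SD, n = 3), the kinesin-2 subunits Kif3a and Kif3c rose 3.51- and 2.71-fold, and the dynactin subunit Dctn3 rose 3.24-fold. The summed markers of Schwann cells and neurons given above moved the same way as these genes, and their part was not tested.

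Over the 6 libraries, on log2 of the rescaled values plus 1, the genes with the pattern most like that of Tubb4a were Mta3, Pcsk1n, Rps9, Efna2 and St8sia3 (Pearson r 0.995 to 0.998). Those most like Tubb3 were Sqrdl, Bpnt1, Pttg1ip, Metap2 and Calb1 (r 0.997 to 0.998). These are descriptions over 6 libraries in 2 groups, and every gene that differs between the groups shares that part of the pattern.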

How the data were processed

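The authors deposited one table of TPM values, a length-normalised unit, per the file headers, with 1 column per library and each column adding up to 1000000. The submitters' processing notes name FastQC, Trimmomatic, HISAT2, HTSeq, DESeq2 and mm10. Neither their versions and roles nor the annotation and strand setting are given in the sources used here. A large fall of a few abundant transcripts raises the TPM of all others.

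Samples were grouped by their titles. The 10404 rows that reached 5 TPM in 3 or more libraries were analysed as log2(value + 1) with limma 3.58.1 in R 4.3.3. The model held group alone, with robust and trended variance, and two-sided p-values were adjusted by Benjamini-Hochberg over all rows tested. It was run on TPM, after rescaling by median-of-ratios factors and relative to summed tubulin. Fold changes on log2(value + 1) understate the change of low genes. Ratios are of mean TPM. Shares and sums had exact two-sided permutation tests. Alternatives were the pseudocount, the filter, the scaling, the limma settings, the denominator of a share, a replicate block and each library left out.

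Whole reads, with any factor shared by all libraries of a gene left unknown, were recovered from ratios between libraries for 16625 of 16625 rows above 0 in at least 2 libraries, within 0.01 of a read. PCR reads are not independent molecules. Recovery and fits were tested on simulated data. With a fall of Ins1 and Ins2 built in, the TPM fit called most of the unchanged genes and the rescaled fit very few.

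The members and gene lists were chosen with earlier results of these data known. The text names all members, the other tubulins, up to 4 genes per list with the smallest adjusted p among those passing on both scales, and the 5 genes most alike in pattern to the largest rise and the largest fall among the members. Transcripts and exons came from GENCODE M21 and promoters from RefSeq (GRCm38.p6, where 8 of 10 members matched by symbol). Coding ends of the α members are not reported here. The main model did not pair the libraries by replicate number, and whether the numbers pair them is not known.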

Additional observations from a re-analysis of the deposited data

How the results depend on the processing

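The calls of Tubb4a (higher) and Tubb3 (lower) on all 3 scales, of Tubb5, Tuba1a, Tuba1b and Tuba4a on TPM, of Tubb4b and Tubb2a after rescaling and of Tubb4b, Tubb2a and Tubb5 relative to summed tubulin kept direction and threshold under every alternative run, limma-voom on the recovered reads among them for the rescaled changes, which like the averaging below was chosen after seeing the data. On TPM the call of Tubb2a (log2 −0.53) was lost without the filter (adjusted p = 0.0875), without the robust and trended fit (0.0582), and with βDKO 1 and βDKO 2 averaged (log2 −0.47, adjusted p = 0.101). With 1 library left out it ran from −0.75 to −0.33. Tubb4b on TPM then ran from −0.50 to −0.25, and after rescaling Tubb5 ran from 0.25 to 0.72, Tuba1b from 0.11 to 0.40, Tuba1a from −0.19 to 0.21 and Tuba4a from −0.34 to 0.02. Tuba1a after rescaling also changed sign with βDKO 1 and βDKO 2 averaged (0.0227), and Tuba4a without control 1 (0.0194). Relative to summed tubulin the Tuba1b call (0.54) was lost under the replicate block (adjusted p = 0.0952) and the plain fit (0.0549), and with βDKO 1 and βDKO 2 averaged (log2 0.48). With 1 library left out it ran from 0.45 to 0.65. The causes were not tested.

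The Tuba1a share differed by −0.89 percentage points, by 9.48 as a share of all 10 members, and by 1.25 once merged with Tuba1b. The Tuba4a share (−1.25) became 0.72 as a share of all 10 members. In those settings the denominator holds β-tubulin, or the pair is taken as 1. Leaving out 1 library gave −2.12 to 0.14 for Tuba1a, −113 to 110.0 for the rescaled α sum and −17.5 to 33.8 TPM for the β sum. The rescaled α sum changed by −23.5, and by 0.0096 as a mean of log2 values.

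Genes lower on TPM numbered 480, and 1098 without the filter. Relative to summed tubulin 2843 were higher and 737 lower, against 1805 higher with βDKO 1 and βDKO 2 averaged and 1310 lower without the filter. With 1 library left out these ran from 1757 to 4496 and from 571 to 1241. Control 3 gave the highest of these counts when left out, and 1757 and 1855 were higher without βDKO 1 and βDKO 2, while 1241 were lower without control 1. Same-numbered libraries had correlations of their deviations from the group means of −0.0634, −0.0256 and 0.207 on TPM. Libraries with unlike numbers had −0.257 to 0.243. These values showed no pairing by number, but so few of them cannot exclude it. The replicate block gave 8358 genes higher and 480 lower on TPM, and 2228 and 2026 after rescaling, and changed no call of a member other than that of Tuba1b. Leaving control 1 out of the gene lists and each library out of the pooled Tubb6 ratio, which then ran from 24.1 to 60.6, was also chosen after seeing the data. Depth limits Tubb6, with 1 or 2 reads in each βDKO library. TPM without an external standard limits every level, though not the shares or the α to β ratio. Those are limited by the unknown treatment of reads with several matches.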
